A study of Mus musculus with 6 samples.

Results

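First-intron regions outside repeats and CpG islands are the TERT CUT&Tag regions whose centre was annotated in the first intron of a transcript, and not in a repeat or a CpG island. There were 4040 of them among the 41515 regions on chromosomes 1 to 19 and X (9.73%). They were chosen from the annotation alone: of 6203 first-intron regions, 1235 were left out as repeats and 928 as CpG islands.

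In CUT&Tag, an antibody, here against TERT (the catalytic subunit of telomerase), brings a transposase to the protein's sites on chromatin, and the cut DNA is sequenced. Primary neurons were cultured from the cortex and hippocampus of C57BL/6 mouse embryos at E15-18. In the BIBR1532 group 3 samples received 2 µM of this small-molecule telomerase inhibitor for 24 h, and in the vehicle group 3 samples received DMSO, which 1 label field calls untreated. No antibody control is among the samples used here, and the lists give no measure of the cells' purity. The 3 libraries of each condition were pooled before regions were compared. Regions with more signal in the BIBR1532 pool form the BIBR1532 list, those with more in the vehicle pool form the vehicle list, and the common list holds those called in both. The first 2 lists are called condition-specific. Which condition is which was read from the order of names in the lists, so the direction is likely and not stated outright. Each condition is therefore 1 measurement with no replicate spread, and intervals below are exact 95% binomial intervals that cover counting error only.

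The first intron follows the first exon and lies nearest to the promoter. In mammalian genes it is often the longest intron and often holds enhancers and alternative start sites. TERT is best known for adding telomere repeats to chromosome ends, and roles away from telomeres have also been described for it.

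The sequences that show how a first-intron region can touch a promoter are those where it reaches into the 300-base window around a start site of its own host gene, from 250 bases before it to 50 after (RefSeq, GRCm38.p6). Capitals mark the bases that lie under the region, in the 2 cases of longest overlap in each list among regions of at most 1000 bp. The BIBR1532 regions were chr11:102430338-102431203 in Grn, which encodes progranulin, and chr16:62785961-62786853 in Nsun3, a mitochondrial tRNA methyltransferase gene. The vehicle regions were chr6:54992119-54993010 in Ggct, which encodes gamma-glutamylcyclotransferase, and chr7:16285850-16286133 in Ccdc9. The common regions were chr5:136961887-136962796 in Fis1, a mitochondrial fission gene, and chr7:143829558-143830174 in Dhcr7, which encodes the enzyme of the last step of cholesterol synthesis. Windows are printed on the strand of the gene.
Grn: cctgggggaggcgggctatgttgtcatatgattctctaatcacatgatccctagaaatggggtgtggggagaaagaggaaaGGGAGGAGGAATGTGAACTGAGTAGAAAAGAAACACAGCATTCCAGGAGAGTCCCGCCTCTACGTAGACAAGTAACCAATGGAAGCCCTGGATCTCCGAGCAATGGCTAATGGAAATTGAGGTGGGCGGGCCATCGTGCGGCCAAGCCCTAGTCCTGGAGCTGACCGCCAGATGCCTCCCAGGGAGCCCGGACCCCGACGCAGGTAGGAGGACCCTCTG
Nsun3: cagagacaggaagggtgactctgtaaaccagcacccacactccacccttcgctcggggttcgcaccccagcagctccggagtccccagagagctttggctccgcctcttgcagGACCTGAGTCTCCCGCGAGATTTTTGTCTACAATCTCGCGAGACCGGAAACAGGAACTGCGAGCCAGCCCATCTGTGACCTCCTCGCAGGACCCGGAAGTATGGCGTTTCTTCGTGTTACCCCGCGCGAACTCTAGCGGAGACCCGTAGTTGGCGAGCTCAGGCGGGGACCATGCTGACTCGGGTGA
Ggct: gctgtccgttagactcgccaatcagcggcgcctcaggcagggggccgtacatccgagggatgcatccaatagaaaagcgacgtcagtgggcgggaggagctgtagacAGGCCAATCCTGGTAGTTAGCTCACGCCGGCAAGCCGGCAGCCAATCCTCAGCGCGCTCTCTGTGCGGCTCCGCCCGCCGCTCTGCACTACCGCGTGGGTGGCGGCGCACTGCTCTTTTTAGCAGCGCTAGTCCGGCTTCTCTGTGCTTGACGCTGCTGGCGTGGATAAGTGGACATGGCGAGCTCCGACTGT
Ccdc9: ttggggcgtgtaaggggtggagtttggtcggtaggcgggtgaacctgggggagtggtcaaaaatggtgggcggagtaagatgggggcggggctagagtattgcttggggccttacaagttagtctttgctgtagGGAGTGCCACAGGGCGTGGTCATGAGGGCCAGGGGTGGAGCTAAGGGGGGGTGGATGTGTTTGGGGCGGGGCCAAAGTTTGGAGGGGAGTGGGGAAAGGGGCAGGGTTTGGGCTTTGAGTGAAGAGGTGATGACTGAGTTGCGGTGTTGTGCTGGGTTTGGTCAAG
Fis1: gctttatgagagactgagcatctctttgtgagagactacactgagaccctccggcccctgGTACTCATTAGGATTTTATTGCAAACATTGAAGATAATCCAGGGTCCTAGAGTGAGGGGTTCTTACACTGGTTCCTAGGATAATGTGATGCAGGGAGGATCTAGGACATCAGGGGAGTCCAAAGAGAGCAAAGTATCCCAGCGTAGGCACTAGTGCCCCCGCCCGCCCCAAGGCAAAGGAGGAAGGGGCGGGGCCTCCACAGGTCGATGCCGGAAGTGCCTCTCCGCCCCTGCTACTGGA
Dhcr7: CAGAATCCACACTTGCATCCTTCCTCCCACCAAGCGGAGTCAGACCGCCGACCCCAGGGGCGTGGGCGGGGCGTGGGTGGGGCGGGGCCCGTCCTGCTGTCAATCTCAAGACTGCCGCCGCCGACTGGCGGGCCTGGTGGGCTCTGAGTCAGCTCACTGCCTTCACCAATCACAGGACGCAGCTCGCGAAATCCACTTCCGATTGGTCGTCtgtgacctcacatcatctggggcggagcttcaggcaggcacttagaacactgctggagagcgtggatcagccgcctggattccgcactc
The regions covered 219 bases of the Grn window, 187 of Nsun3, 193 of Ggct, 166 of Ccdc9, 240 of Fis1 and 211 of Dhcr7. In Dhcr7 the region covered the upstream end of the window, although its deposited distance to the nearest start site was 6699 bp, and in Ccdc9 it covered the window's start site at a deposited distance of 804 bp. The start sites of the deposited annotation and of RefSeq differ in both genes. Such contact was infrequent, but the rule partly sets this, since the 7058 regions annotated as promoters form a class of their own. It was not counted in later introns or over all regions. Among members whose host gene has a window, 18 of 1302 BIBR1532 regions (1.38%, 0.821 to 2.18%) and 33 of 1501 vehicle regions (2.20%, 1.52 to 3.07%) reached into it, against 39 of 306 common regions (12.7%, 9.22 to 17.0%). The start site itself was covered by 12, 16 and 18 regions of the 3 lists.

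The condition-specific lists held similar shares of first-intron regions, and the common list a lower one. First-intron regions made up 1695 of 16149 BIBR1532 regions (10.5%, 10.0 to 11.0%), 1958 of 18554 vehicle regions (10.6%, 10.1 to 11.0%) and 387 of 6812 common regions (5.68%, 5.14 to 6.26%). The common list is 16.4% of all regions. Regions in later introns, chosen in the same way, were 20.7%, 20.5% and 4.86% of the 3 lists. CpG islands were the larger loss for the common list, where 396 of 822 first-intron regions carried that annotation. In the BIBR1532 list 264 of 2561 did, and in the vehicle list 268 of 2820. The lower common share thus comes in part from the rule itself. Among regions at least 1 kb from a start site, the shares were 9.85% (9.35 to 10.4%), 10.1% (9.61 to 10.6%) and 9.02% (7.76 to 10.4%), with overlapping intervals.

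Among condition-specific first-intron regions, 1695 were in the BIBR1532 list and 1958 in the vehicle list, a BIBR1532 share of 46.4% (44.8 to 48.0%). The background over all 34703 condition-specific regions was 46.5% BIBR1532 and 53.5% vehicle, and later introns gave 46.8% (45.6 to 47.9%). The share among first-intron regions is thus near the background.

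Common first-intron regions lay close to start sites, and condition-specific ones lay farther away at the median. The median distance from the region centre to the nearest start site was 6713 bp (quartiles 1126 and 28388 bp) in the BIBR1532 list, 9257 bp (1514 and 31330 bp) in the vehicle list and 753 bp (364 and 7550 bp) in the common list. In later introns the medians were 42152, 43412 and 31545 bp. Regions within 5 kb of a start site were 45.3% (42.9 to 47.7%) of BIBR1532 members, 38.1% (35.9 to 40.3%) of vehicle members and 71.6% (66.8 to 76.0%) of common members. The intervals of the 3 lists did not overlap. The lists stood in the same order over all regions, at 26.5%, 23.5% and 77.5%, and in later introns, at 7.43%, 5.66% and 12.7%. Within 0.5 kb alone lay 10.3% of BIBR1532, 9.19% of vehicle and 38.2% of common members, against 12.5% (BIBR1532) and 67.0% (common) of all regions, where 2221 of 18554 vehicle regions lay there.

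**Figure D1:**
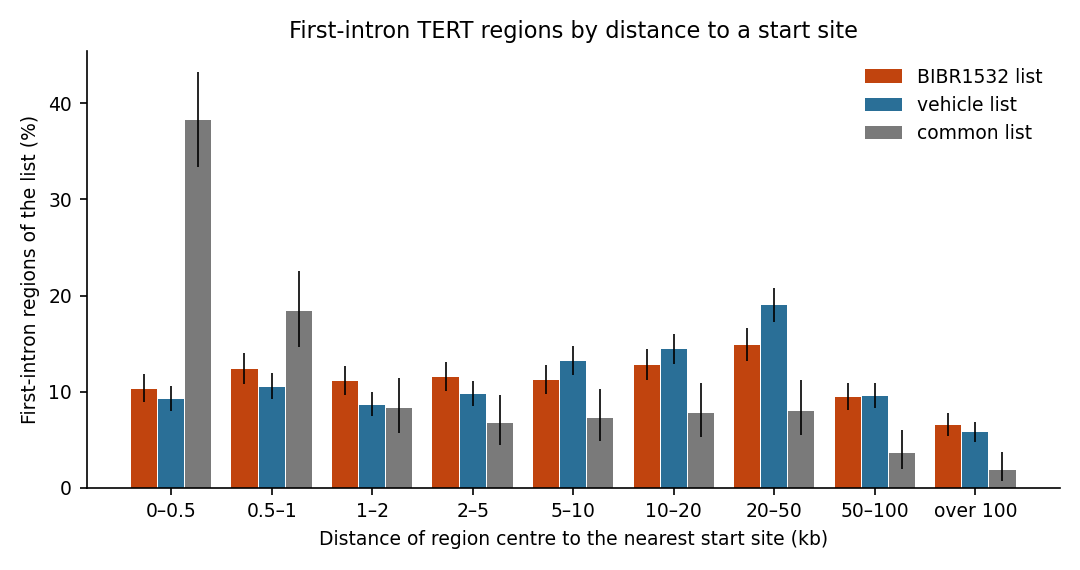
Share of the first-intron regions of each list (y axis, percent) by distance of the region centre to the nearest start site (x axis, kb), with exact 95% binomial intervals as bars. The common list peaks within 0.5 kb at 38.2%, against 10.3% in the BIBR1532 list and 9.19% in the vehicle list.

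The BIBR1532 share differed with distance. Within 5 kb of a start site there were 767 BIBR1532 and 746 vehicle members, a share of 50.7% (48.1 to 53.2%). Beyond 5 kb there were 928 and 1212, a share of 43.4% (41.3 to 45.5%), and the intervals did not overlap. The lower share lay between 5 and 50 kb, with 658 BIBR1532 and 912 vehicle members (41.9%, 39.5 to 44.4%). Beyond 50 kb it was 47.4% (43.2 to 51.6%). Both limits were chosen after seeing the data, so these shares are a description. With a width of at least 500 bp the intervals within and beyond 5 kb overlapped (47.8 to 64.6% and 42.0 to 53.5%).

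All regions showed a change with distance in the same direction, with 49.6% within 5 kb and 45.5% (44.7 to 46.3%) from 5 to 50 kb. So did later-intron regions, with 53.6% (48.9 to 58.2%) within 5 kb and 46.3% (45.1 to 47.5%) beyond 5 kb. The intervals were apart there too, so over all scores the change is not particular to first introns. Without regions at their list's single most frequent score, the later-intron intervals overlapped (45.0 to 57.2% within 5 kb, 46.7 to 50.5% beyond). Those of all regions also overlapped (48.1 to 50.5% and 46.5 to 48.4%), while first-intron intervals did not (47.6 to 53.6% and 40.5 to 47.0%). Later-intron regions from 5 to 50 kb had a share of 46.1% (44.5 to 47.8%). The lower end of that interval was close to the upper end for first-intron regions, and the intervals overlapped among regions with their list's single most frequent score (first-intron 38.3 to 44.9%, later-intron 42.5 to 46.9%) and among the others (38.6 to 46.2% and 45.6 to 50.9%). In single bins, the first-intron share was 42.4%, 43.4% and 40.4% from 5 to 10, 10 to 20 and 20 to 50 kb, against 51.4%, 45.1% and 45.1% in later introns. No test of the difference was made.

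**Figure D2:**
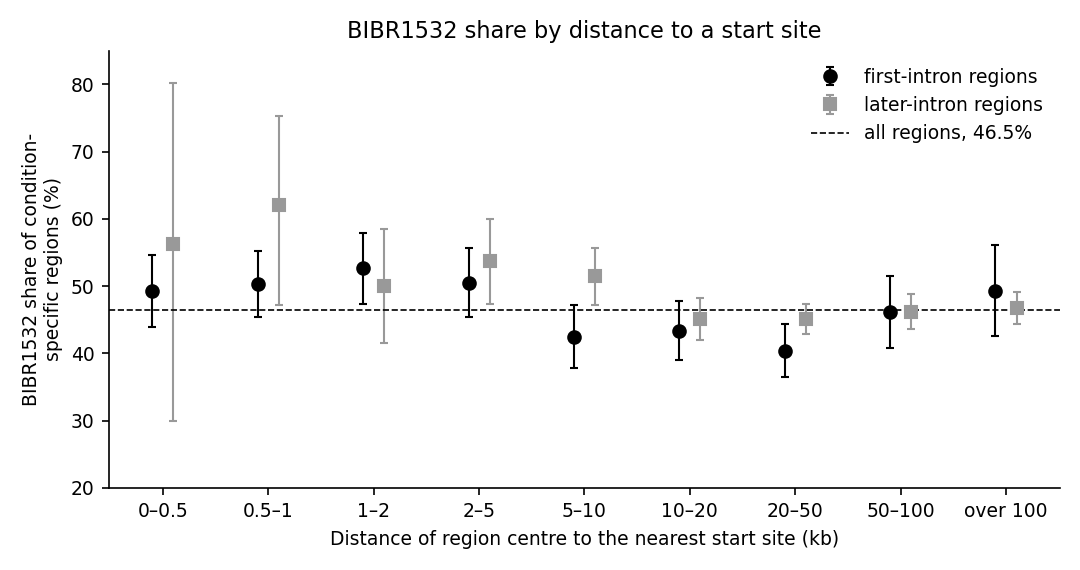
BIBR1532 share of condition-specific regions (y axis, percent) by distance of the region centre to the nearest start site (x axis, kb), for first-intron (circles) and later-intron (squares) regions, with exact 95% binomial intervals and a dashed line at the 46.5% of all regions. First-intron shares lie between 40.4% and 43.4% from 5 to 50 kb and between 49.3% and 52.7% within 5 kb.

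Many regions share a single score, the most frequent of their list, at 6.34 in the BIBR1532 list and 5.19 in the vehicle list. MACS2 is known to give a log10 likelihood ratio here, though the files do not name the quantity. The most frequent score was held by 43.4% of BIBR1532 and 45.8% of vehicle first-intron members, against 56.2% and 59.7% in later introns. From 5 to 50 kb the BIBR1532 share was 41.6% among members at that score and 42.4% among the others, so the share was about as low in both.

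Median widths of first-intron regions were 240 bp in the BIBR1532 list, 240 bp in the vehicle list and 219 bp in the common list, against 247, 243 and 222 bp in later introns and 247, 244 and 257 bp over all regions. Regions of at least 2 kb numbered 19, 13 and 0, of 362, 414 and 2 over all regions. The widest, of 22132 bp in the BIBR1532 list at Klk13, a kallikrein-family peptidase gene, extends well past its intron, since the class is set by the centre alone. Next came 10687 bp in the vehicle list at Vmn2r78, a vomeronasal receptor gene, and then BIBR1532 regions of 10449 bp at Gm30332, 9737 bp at Hrh4, a histamine receptor gene, and 7365 bp at Pcdh15, a protocadherin gene.

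A host gene was found for 4024 of the 4040 members (99.6%), in 2763 genes and 2881 introns. The gene with the nearest start site was the host for 92.5%, and another gene for 302 members. Most hosts were protein-coding, with 3819 members, and 198 members lay in long noncoding RNA genes. Most genes, 2036 (73.7%), held 1 member, while 62 genes with 5 or more held 399. Host genes with a BIBR1532 member numbered 1369, those with a vehicle member 1551 and those with a common member 369. Both condition-specific lists shared 408 genes, which is 29.8% of the BIBR1532 genes and 26.3% of the vehicle genes. By intron, 388 of 1408 introns with a BIBR1532 region (27.6%) also held a vehicle region, and these were 24.2% of the 1606 with a vehicle region. No such overlap over later-intron or all regions is given beside these values, so they do not show a trait of first introns. Median host length, taken over regions so that a gene counts once for each of its regions, was 91.2 kb, 96.2 kb and 37.3 kb for the 3 lists. In later introns it was 162 kb, 161 kb and 119 kb.

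The genes with the most first-intron regions were long, several of them known for roles in neurons, and all 10 held regions of both condition-specific lists. Lsamp, a neuronal adhesion molecule of the IgLON family, held 6 BIBR1532 and 6 vehicle regions over a gene of 2197 kb. Ntm, of the same family, held 5 and 5. Ank2, an ankyrin that links membrane proteins to the spectrin skeleton, held 5 and 5 with 1 common region. Asic2, an acid-sensing ion channel, held 5 and 6. Gpm6a, a neuronal membrane glycoprotein, and Rora, a nuclear receptor, each held 6 and 4 with 1 common region. Rbfox1, a neuronal splicing factor, held 6 and 4. The noncoding gene 2610035D17Rik held 4 and 4 with 1 common region, and Msra, which reduces oxidised methionine, held 3 and 6 with 1 common region. Frmd4a, a FERM-domain scaffold, held 2 BIBR1532 and 6 vehicle regions, and 2 of each once regions with that most frequent score were left out. It was taken by score from 6 genes with 8 members. Counts were not divided by intron length, since the lists give no intron lengths.

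Among members, other genes held condition-specific regions from 1 list only, or nearly so. Lrfn2, a synaptic adhesion molecule that binds the scaffold PSD-95, held 5 BIBR1532 and 0 vehicle regions, between 42.3 and 112 kb from its start. Ank, a transporter involved in pyrophosphate export, also held 5 and 0, between 21.5 and 70.6 kb. Ubash3b, a tyrosine phosphatase, held 4 and 0 with 1 common region. Magi1, a junctional scaffold, and Ptprt, a receptor tyrosine phosphatase, each held 4 and 0.

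In the other direction, Zfpm2, a cofactor of GATA transcription factors, held 0 BIBR1532 and 5 vehicle regions, between 37.3 and 91.9 kb from its start. Cdh13, a cadherin without a transmembrane domain, held 0 and 4 with 1 common region, and Xkr6 held 0 and 4. Upp2, a uridine phosphorylase, held 1 and 4. These genes were picked for their one-sided counts among 2763, so the counts are a description. Of 4 genes with a BIBR1532 excess of 4, 3 are named here, and Upp2 is 1 of 22 genes with a vehicle excess of 3, taken by score. Many of the regions had their list's single most frequent score. Without those, the BIBR1532 minus vehicle difference was 2 in Lrfn2, Ank, Ubash3b and Ptprt, 1 in Magi1, -1 in Cdh13, -2 in Xkr6 and -3 in Zfpm2. With a width of at least 500 bp it was between -1 and 1 in all 10 genes named for their excess, and 0 in Lrfn2, Ubash3b and Upp2. The zero counts hold for members only. With repeat-annotated first-intron regions kept, the difference was 3 over 5 regions in Ptprt and -3 over 8 in Cdh13. It stayed 5 in Lrfn2 and Ank, over 7 regions each. It grew to 6 in Ubash3b, 5 in Magi1 and -5 in Frmd4a, and was unchanged in Zfpm2, Xkr6 and Upp2.

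**Figure D3:**
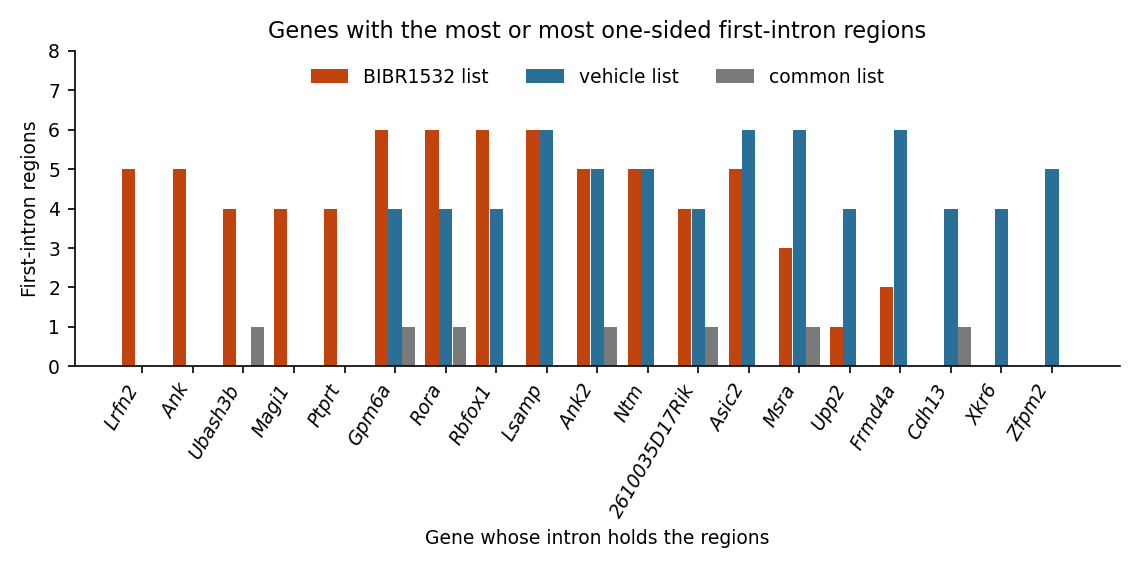
Number of first-intron regions (y axis) in each of 19 named genes (x axis), by list, ordered by the difference between BIBR1532 and vehicle counts. Lrfn2 and Ank at the left hold 5 BIBR1532 regions and 0 vehicle regions, and Zfpm2 at the right holds 0 and 5.

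**Figure D4:**
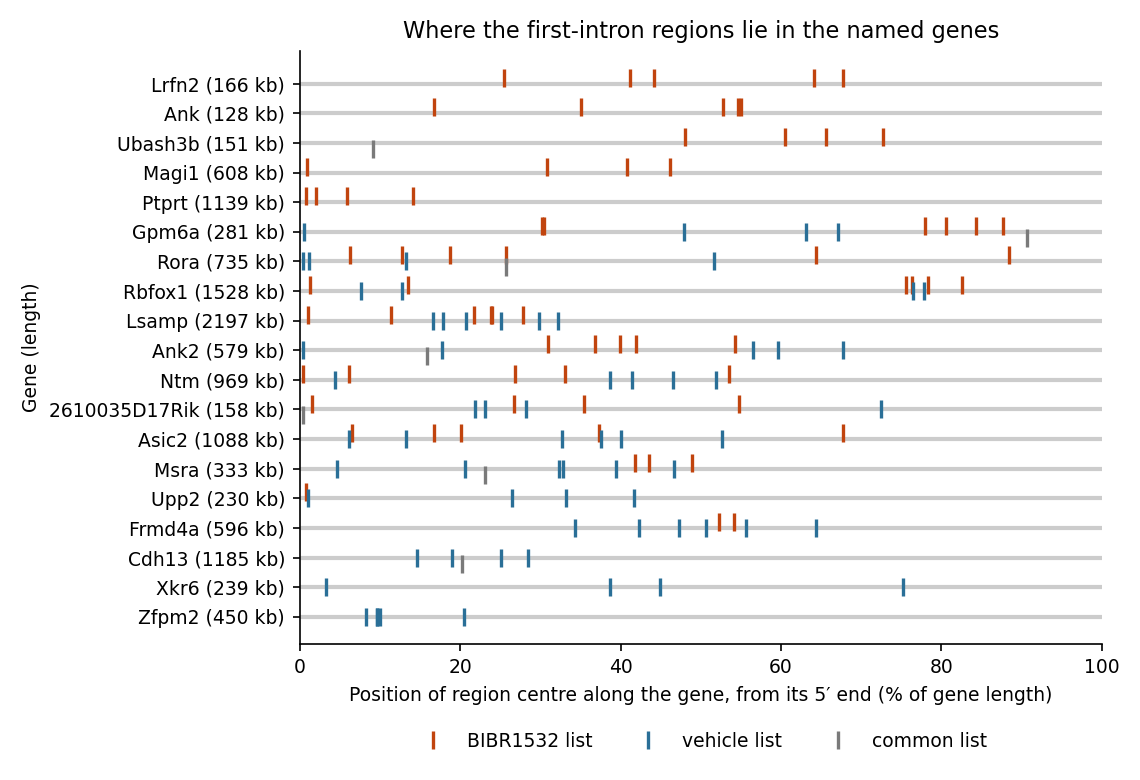
Position of each first-intron region centre (ticks, coloured by list) along the gene from its 5′ end (x axis, percent of gene length) in the same 19 genes (rows). In Lsamp the stretches of both lists overlap, at 23.3 to 610 kb for BIBR1532 and 366 to 708 kb for vehicle regions, and in Zfpm2 the 5 vehicle regions lie in the first 91.9 kb of a gene of 450 kb.

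In some genes the lists were interleaved. In Frmd4a the BIBR1532 regions lay at 312 and 323 kb from the start, inside the 205 to 384 kb spanned by the vehicle regions. In Rbfox1 BIBR1532 regions spanned 20.6 to 1261 kb and vehicle regions 117 to 1190 kb. In Zfpm2 the vehicle regions chr15:40697903-40698391 and chr15:40698503-40698719 were separate entries of the list that lie close together.

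The regions of highest score in the BIBR1532 list lay in Ctnnal1, an alpha-catenin-like gene (chr4:56850201-56850633, score 20.6), Pex5l, an auxiliary subunit of HCN channels (17.2), Gm16630 (16.9), Ppp2r5c, a regulatory subunit of protein phosphatase 2A (16.1), and St14, the protease matriptase (15.9). The Gm16630 region has Zfp746 as the gene with the nearest start site. In the vehicle list they lay in Maml2, a Notch coactivator (chr9:13681333-13682014, score 18.8), Pafah2, a platelet-activating factor hydrolase (18.4), Tm6sf1 (17.9), Cfap99 (17.5) and Ago1, an Argonaute protein (16.5). Scores rank regions within a list only. The widest common regions lay in Crlf2, a cytokine receptor gene (1814 bp), Fis1 (910 bp), the imprinted gene Peg3 (865 bp), Angptl6 (827 bp) and Tcaf1 (808 bp).

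Of 8 genes looked up whatever their values, 2 held a member. Mapt, which encodes tau, held 1 BIBR1532 region (chr11:104249493-104249665, score 7.85). Outside the members, the first intron of Mapt also had 1 region in each of the BIBR1532, vehicle and common lists. App, which encodes the amyloid precursor protein, held 1 vehicle region (chr16:85135310-85135448) at the most frequent score, and its first intron had 1 more vehicle region that is not a member. Myc, Bdnf, Tert, Terc, Ctnnb1 and Ccnd1 held 0. Myc does have a first-intron vehicle region of score 20.2, which carries a CpG island annotation and so is not a member.

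Of 538 genes in 19 gene lists, 195 held a member (36.2%), against 2604 of 21900 protein-coding genes (11.9%). The gene lists were chosen with earlier results of these data known, so these shares are a description. No such share for later introns is given beside them. The listed genes are also longer, with a median of 106 kb against 17.1 kb, and the part of length in these counts was not tested. Synaptic and other cell adhesion genes held the most, with 30 of 44 genes and 47 BIBR1532, 62 vehicle and 1 common regions, in genes with a median length of 824 kb, led by Lsamp and Ntm, with Ncam1 (3 and 5) and Cadm2 (3 and 4), both neural adhesion molecules. Postsynaptic scaffolds held 24 BIBR1532 and 17 vehicle regions in 19 of 30 genes, among them Dlg2, which encodes PSD-93, with 4 and 4. Neuronal transcription factors held 17 and 26 in 15 of 44 genes, with Rora and Zfpm2 at opposite ends. Synaptic vesicle and active zone genes held 11 and 4 (73.3%, 44.9 to 92.2%) in 14 of 39 genes, among them the synapsin gene Syn3 with 3 and 0 and the synaptotagmin gene Syt6 with 2 and 0.

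Voltage-gated ion channel genes held 16 and 19, with the potassium channel gene Kcnd2 at 3 and 3 and the sodium channel gene Scn3a at 3 and 0. Axon guidance genes held 17 and 18, among them Dcc, the netrin receptor, with 3 and 3. Glutamate and GABA receptor genes held 10 and 7, including the kainate receptor genes Grik3 (3 and 1) and Grik4 (3 and 2). RNA-binding protein genes held 11 and 16, chromatin regulators 10 and 7, second messenger genes 8 and 12, and immediate early genes 3 and 0. Wnt pathway genes held 9 and 10, with the ligand gene Wnt5b at 2 and 2. Of 22 telomerase and telomere genes, Dkc1, which encodes dyskerin, held 1 vehicle region. For 0 of the 18 lists with condition-specific members did the interval of the BIBR1532 share lie apart from the 46.4% of all members.

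Marker genes of the cell types that such cultures can hold were counted in the same way, and a region in a gene says nothing of that gene's expression. Neuron markers held 7 BIBR1532 and 7 vehicle regions in 7 of 16 genes, astrocyte markers 7 and 3 in 5 of 16, endothelial and mural markers 1 and 4, oligodendrocyte lineage markers 1 and 2 and microglia markers 1 and 0. Ncam1, also counted among the adhesion genes, alone held 3 and 5 of the neuron marker regions. Over the common list too, neuron markers had 15 regions by host gene but 9 by nearest gene. Neural progenitor markers held a member in 0 of 16 genes, against 11.9% of protein-coding genes. The progenitor markers had a median length of 8.94 kb, against 50.7 kb for neuron markers and 17.1 kb for protein-coding genes. Astrocyte markers had a median of 11.7 kb. The part of gene length in the marker counts was not tested, so these counts do not compare cell types.

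Members near start sites had a common region beside them more frequently than members farther away. Of all common regions 77.5% lie within 5 kb of a start site, so this order was largely fixed in advance. Of BIBR1532 members within 5 kb of a start site, 20.2% (17.4 to 23.2%) had a common region within 1 kb, as did 17.3% (14.6 to 20.2%) of vehicle members. Beyond 5 kb these shares were 1.94% and 1.24%. Later-intron regions had the same order by distance, with 7.66% (BIBR1532) and 12.1% (vehicle) within 5 kb and 2.07% and 1.40% beyond. Within 5 kb the vehicle share was the higher there, unlike among members. A vehicle region lay within 1 kb of 7.14% of BIBR1532 members (5.96 to 8.47%), against 2.91% (2.36 to 3.54%) of later-intron BIBR1532 regions. Beyond 5 kb alone these shares were 3.99% (2.82 to 5.45%) and 2.79% (2.23 to 3.43%), with overlapping intervals. A common region at a promoter was present in 17.9% of host genes with a BIBR1532 member, 17.5% with a vehicle member and 19.2% with a common member, against 14.0% of 21900 protein-coding genes. In later introns these shares were 18.1%, 16.8% and 15.4%.

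Promoter windows of the host genes were GC-rich. Median GC content was 61.7% for hosts of BIBR1532 members, 62.7% for vehicle and 60.3% for common, against 56.7% over all protein-coding windows. Later-intron hosts had 60.3%, 60.7% and 60.3%. The SP/KLF motif GGGCGGG, searched on both strands, was in 42.3% (39.4 to 45.3%) of windows of BIBR1532 hosts, 47.6% (44.8 to 50.4%) of vehicle hosts and 45.4% (39.6 to 51.3%) of common hosts, against 34.2% of protein-coding windows and 25.7% of all 32619 windows. Later-intron hosts had 40.2%, 39.9% and 36.8%. The TCF/LEF motif (CTTTGAA or CTTTGAT) was in 5.92%, 4.60% and 6.14% of first-intron hosts' windows against 7.61% of protein-coding windows, and the AP-1 motif TGANTCA in 5.27%, 5.00% and 4.78% against 7.04%. The E-box CACGTG was in 7.02%, 8.56% and 8.87% against 7.91%, the cAMP response element TGACGTCA in 2.03%, 2.02% and 1.71% against 2.26%, and the NRF1 motif GCGCATGCG in 1.94%, 2.34% and 2.73% against 2.37%. The telomere repeat motif TTAGGGTTA was in 2 of 1082, 0 of 1239 and 2 of 293 windows, against 0.264% of all windows. A motif match is a description of the letters only. The sequence of the regions themselves was not analysed here.

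By chromosome, the BIBR1532 share was highest on chromosome 16, with 85 BIBR1532 and 51 vehicle members (62.5%, 53.8 to 70.6%). Later-intron regions there had 45.4% (39.4 to 51.4%) and all regions 48.2%. Chromosome 16 was the 1 of 20 whose interval lay apart from the 46.4% of all members, and later-intron and all regions each also had 1 chromosome of 20 apart from their own share (46.8% and 46.5%). The share there was 59.4% among members at the most frequent score and 65.7% among the others, and 64.0% without Lsamp and Rbfox1, the named genes with most members there. Within 5 kb of a start site it was 74.4% (58.8 to 86.5%), with 32 BIBR1532 and 11 vehicle members. Without chromosome 16 there were 735 BIBR1532 and 735 vehicle members within 5 kb, and the share from 5 to 50 kb was 41.3%. The lowest shares were on chromosomes 15 (38.2%) and 14 (38.6%).

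**Figure D5:**
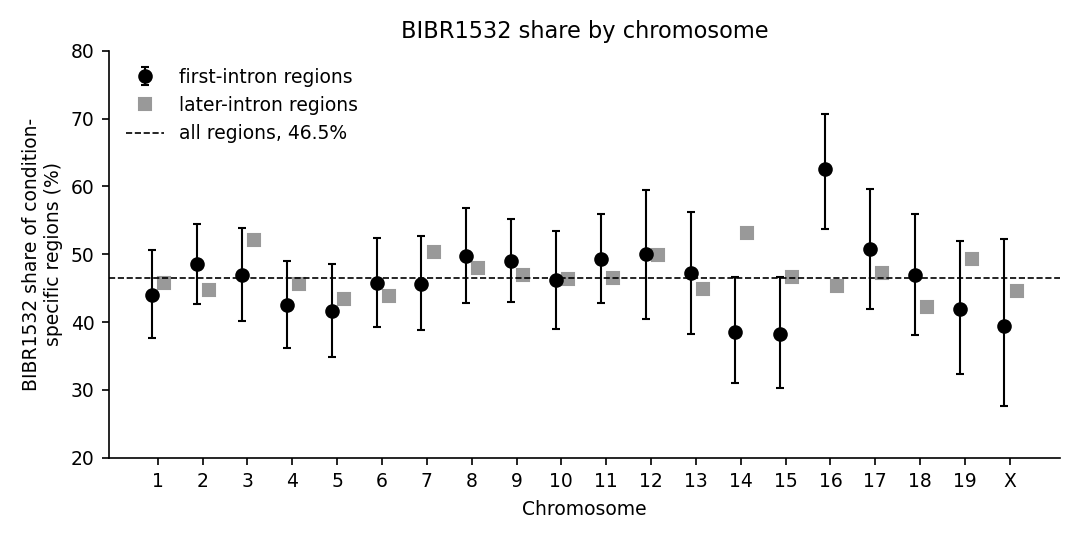
BIBR1532 share of condition-specific regions (y axis, percent) by chromosome (x axis), for first-intron regions (circles, with exact 95% binomial intervals) and later-intron regions (squares), with a dashed line at the 46.5% of all regions. Chromosome 16 stands highest at 62.5%, while its later-intron share is 45.4%.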

How the data were processed

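The 3 deposited lists came from TERT CUT&Tag on primary mouse neurons and compare pools of 3 BIBR1532 and 3 vehicle libraries, grouped by the dose in the sample titles. Per the submitters' processing notes, CASAVA 1.8, Bowtie2, Picard and MACS2 2.1.2 were used with the mm10 build. Per the file headers, regions were annotated with annotatePeaks.pl, and each deposited region carries a score set by the authors. The comparison step (bdgdiff of MACS2) was inferred from the form of the lists. The scaling between pools was not stated in the labels or headers read here. Both condition-specific lists were decoded from UTF-7.

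A region's host gene is the gene of the transcript named in its intron annotation, matched to the RefSeq table (GRCm38.p6, the same build) and accepted where the region lies inside that gene. Shares carry exact (Clopper-Pearson) 95% intervals, which cover counting error only. With 1 pooled measurement per condition, no test across samples was made, the depth is unknown from the lists, and a share compares lists rather than conditions. Strand came from the RefSeq promoter table or, for 5 of the 19 genes in the position plot, from the deposited distances, since regions with 1 nearest start site imply the same start coordinate (within 2 bp) only under the right strand. Both sources gave the same strand for 6817 of the 6820 genes that had both. Interval coverage, merging and neighbour counts were tested on simulated data.

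The genes named are the 10 with the most regions, the 5 with the largest excess each way, hosts of the 5 regions of highest score (5 widest for the common list), up to 4 members of each gene list described, and 8 genes fixed by name, with ties broken by score, then width. The members and gene lists were chosen with earlier results of these data known. The 5 and 50 kb limits on the BIBR1532 share, the widest regions over all lists, the chromosome 16 breakdown and the rule for the printed sequences were chosen after seeing the data. Alternatives were score minimums of 2 and 3, no regions at the most frequent score, a width of at least 500 bp, merging within 1 kb, repeat-annotated regions kept, a distance of at least 1 kb, all contigs and, added later, introns in place of regions. Tables were made in Python 3.11.15 with pandas 2.3.3 and numpy 2.4.6, intervals with scipy 1.17.1 and figures with matplotlib 3.10.9.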

Additional observations from a re-analysis of the deposited data

How the results depend on the processing

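Precision is limited by the pooling: there are no replicate values, the depth of the pools is unknown, and a region near the calling threshold may fall in another list at another depth, which was not tested. No paired analysis was possible because each list pools the 3 libraries of its condition and no result comes from single samples. Leaving out a library was likewise not possible. The alternatives planned for the GC content and motifs of the regions themselves were not run, since no genome was used. Of the recomputed main values, 60 left the interval of the reported one and 69 stayed within it or, for a count over the gene lists (436 by host gene, 392 by nearest gene), within 1.5 times. A gene in more than 1 gene list adds its regions to that count more than once. A minimum width or distance raises the median width or distance by its own definition. The score settings do not apply to the common list and give no value for it. The settings are not separate checks, since they reuse the same regions, in some cases nearly unchanged. The 5 kb limit was also chosen after seeing the data. With these limits, the BIBR1532 share within 5 kb was above that beyond 5 kb in 9 of 9 settings. The order of other pairs did change: the first-intron share was higher in the BIBR1532 than in the vehicle list with a width of at least 500 bp and with repeats kept, and the BIBR1532 share was above 50% at all distances with that width and below it within 5 kb with scores of at least 2 (48.6%) or 3. The BIBR1532 share ranged from 44.3 to 50.4% over all first-intron regions, 48.1 to 56.3% within 5 kb, 42.1 to 47.7% beyond 5 kb and 40.6 to 44.9% from 5 to 50 kb. Of 80 recomputed gene excesses, 4 were 0 (Frmd4a without the most frequent score, and Lrfn2, Ubash3b and Upp2 with a width of at least 500 bp) and 0 changed sign. Most of these genes were picked with 0 regions in the other condition-specific list, and most settings only remove or merge regions. A change of sign was thus largely excluded in advance. The following values left their interval, and the cause was not tested beyond what each setting removes or adds.

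With scores of at least 2, the median distance was 8776 bp (BIBR1532) and 10688 bp (vehicle), the share within 5 kb 41.2% and 35.3%, and the median BIBR1532 width 250 bp. With scores of at least 3 these were 9548 and 11309 bp, 39.4% and 33.8%, and 250 bp, and the BIBR1532 share was 44.3% over all distances and 48.1% within 5 kb. Without the most frequent score, first-intron shares were 11.2% (BIBR1532) and 11.5% (vehicle), median distances 2446 and 4428 bp, shares within 5 kb 57.9% and 51.1%, median widths 262 and 259 bp, and 17.0% of introns with a BIBR1532 region also held a vehicle region. With a width of at least 500 bp, first-intron shares were 8.84% (BIBR1532), 7.88% (vehicle) and 3.94% (common), median distances 12077, 13824 and 436 bp, shares within 5 kb 35.4%, 27.9% and 90.0%, and median widths 653, 636 and 619 bp. The BIBR1532 share was then 50.4% over all distances, 56.3% within 5 kb, 47.7% beyond 5 kb and 44.7% from 5 to 50 kb, and 8.33% of introns held both. Merging within 1 kb gave median widths of 250, 248 and 242 bp. Keeping repeat-annotated regions gave first-intron shares of 14.2% (BIBR1532) and 13.8% (vehicle), median distances of 8929 and 10634 bp, shares within 5 kb of 39.4% and 34.8%, a BIBR1532 share of 45.5% beyond 5 kb and 44.9% from 5 to 50 kb, and 32.6% of introns with both. At least 1 kb from a start site, first-intron shares were 9.85%, 10.1% and 9.02%, median distances 13008, 14820 and 8944 bp, shares within 5 kb 29.2%, 22.9% and 34.5%, and 33.0% of introns held both.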

Other observations

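First-intron regions left out by the rule gave BIBR1532 shares near 50%. CpG island regions in first introns numbered 264 in the BIBR1532 list, 268 in the vehicle list and 396 in the common list, a BIBR1532 share of 49.6% (45.3 to 54.0%). Repeat-annotated ones numbered 602, 594 and 39, a share of 50.3% (47.5 to 53.2%), against 46.4% (44.8 to 48.0%) for the regions outside both. No test of the difference was made. Of the first-intron regions outside both, 0 overlapped any of 1005 miRNA hairpins of the RefSeq table.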
